A study of Homo sapiens with 2 samples.

Results

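The 8 genes described here encode transcription factors of the foregut and liver: *HNF4A*, *FOXA1*, *FOXA2*, *FOXA3*, *ONECUT1*, *PROX1*, *PDX1* and *CDX2*. They were chosen by symbol, and all 8 were among the 36601 genes counted in each library. They were measured by droplet single-cell RNA sequencing in 2 blood-generating heart-forming organoids (BG-HFOs) on day 14 of differentiation, labelled 32.7 and 33.10, with 1 library each. Both came from hES3 NKX2.5-eGFP, a human embryonic stem cell line that carries a green fluorescent reporter at the cardiac gene *NKX2-5*, so they share 1 genotype. Both received the same treatment, in which cell aggregates in Matrigel were exposed to WNT pathway activation, then inhibition, and to growth factors and cytokines that drive endothelium and blood. There was thus no untreated group, and the comparisons were made between cell classes within the organoids.

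In the embryo, FOXA factors open chromatin in the definitive endoderm before liver genes are switched on, and *HNF4A* is a nuclear receptor that keeps hepatocyte and intestinal epithelial genes active. *ONECUT1* and *PROX1* act in the outgrowth of the liver bud, *PDX1* marks the pancreatic and duodenal region, and *CDX2* specifies the intestine further back. *PROX1* is also known from heart muscle and from lymphatic endothelium, whereas the other factors are mainly found in endodermal epithelium. Alpha-fetoprotein, encoded by *AFP*, is secreted by the foetal liver and the yolk sac endoderm and served here to find the endodermal cells.

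Organoid 32.7 had 16866 barcodes with 191152562 unique molecular identifiers (UMIs, 1 per captured transcript) and organoid 33.10 had 19948 barcodes with 233818881 UMIs. The libraries shared 100 barcode sequences (0.593% and 0.501% of their barcodes). A barcode with at least 10 *AFP* UMIs was called an *AFP* barcode. The other barcodes were assigned to 6 lineages (cardiomyocyte, endothelial, erythroid, megakaryocyte, myeloid and mesenchymal) when at least 3 of 6 gate genes of 1 lineage, and of no other, had at least 2 UMIs. None of the 8 factors was used to form a class. UMIs were summed per class and organoid, which gave 14 sums, and levels are UMIs per 1000000 UMIs of the class (CPM). Intervals in brackets are exact 95% Poisson intervals for a level and exact binomial intervals for a share, and they cover counting error only.

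There were 307 *AFP* barcodes in organoid 32.7 (1.82% of its barcodes, 1.62% to 2.03%) and 24 in organoid 33.10 (0.120%, 0.0771% to 0.179%). They held 3514088 and 566845 UMIs, with medians of 6568 and 16336 UMIs per barcode. Markers of liver and yolk sac endoderm that formed no gate were present in them: all 6 of *TTR*, *APOA1*, *APOB*, *ALB*, *SERPINA1* and *EPCAM* were highest in the *AFP* barcodes in both organoids, and their summed level was 16877 CPM in 32.7 and 16654 CPM in 33.10, against at most 75.1 CPM and 49.1 CPM in any lineage. The *AFP* barcodes also carried transcripts of the other lineages. In organoid 32.7, 169 of them passed the cardiomyocyte gate, 64 the megakaryocyte gate and 59 the mesenchymal gate, and 86 passed none. In organoid 33.10 the cardiomyocyte and the mesenchymal gate were each passed by 6, the megakaryocyte gate by 5, and 12 passed none. The 6 cardiomyocyte markers that formed no gate summed to 732 CPM and 388 CPM in the *AFP* barcodes, 9.15% and 4.93% of their level in the cardiomyocytes, and none of the 6 was at 0. The 6 mesenchymal markers reached 22.2% and 14.6% of their level in the mesenchymal class, with *POSTN* at 0 in organoid 33.10. The 6 endothelial markers reached 13.1% and 12.0%, the 6 megakaryocyte markers 5.65% and 13.4%, the 6 myeloid markers 5.09% and 0.149% and the 6 erythroid markers 0.786% and 1.21%. The erythroid gene *SLC4A1* was at 0 in the *AFP* barcodes of both organoids, as were *EPB42* and the myeloid genes *C1QA*, *CD14*, *CD163*, *ITGAM* and *SPI1* in those of 33.10. The part of free RNA and of droplets with more than 1 cell in the values below was not tested.

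The 250 bases before the annotated transcription start are shown from RefSeq (GRCh38.p14) for *CDX2* and *ONECUT1*, by which the *AFP* barcodes are grouped later, and for *HNF4A*, which was found on both sides of that grouping. RefSeq promoters were found for 5 of the 8 factors, *HNF4A*, *FOXA1*, *FOXA3*, *ONECUT1* and *CDX2*, and those of *FOXA1* and *FOXA3* are not shown, since their windows overlap annotated exons. *HNF4A* has 2 starts, 45.5 kb apart. The window of the first lies just before the gene (chr20:44355449-44355698, plus strand), and that of the second lies within the gene and overlaps no exon (chr20:44400989-44401238, plus strand). The window of *CDX2* lies just before its gene (chr13:27969316-27969565, minus strand), and that of *ONECUT1* lies within the annotated gene span without touching an exon (chr15:52790337-52790586, minus strand). Capitals mark matches on either strand to GTTAAT for HNF1 factors, TGTTTNC for FOXA factors, CAAAGTNCA for HNF4 factors, TTTAT for CDX factors, AGATAA for GATA factors and ATTGATT for ONECUT factors.
HNF4A, first start: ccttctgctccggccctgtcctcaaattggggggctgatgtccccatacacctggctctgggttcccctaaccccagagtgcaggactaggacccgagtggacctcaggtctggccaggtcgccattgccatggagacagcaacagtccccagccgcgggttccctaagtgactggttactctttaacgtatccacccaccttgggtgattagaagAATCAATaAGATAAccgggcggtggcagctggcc
HNF4A, second start: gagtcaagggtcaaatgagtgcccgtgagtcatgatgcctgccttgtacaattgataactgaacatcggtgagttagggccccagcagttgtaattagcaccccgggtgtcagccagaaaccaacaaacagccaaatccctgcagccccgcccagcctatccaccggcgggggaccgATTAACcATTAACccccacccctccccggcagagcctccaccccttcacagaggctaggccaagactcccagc
CDX2: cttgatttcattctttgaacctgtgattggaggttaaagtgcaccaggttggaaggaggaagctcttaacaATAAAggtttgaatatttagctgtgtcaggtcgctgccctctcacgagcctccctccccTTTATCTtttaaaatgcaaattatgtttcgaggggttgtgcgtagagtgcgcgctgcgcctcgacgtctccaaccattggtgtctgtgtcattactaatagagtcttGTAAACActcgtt
ONECUT1: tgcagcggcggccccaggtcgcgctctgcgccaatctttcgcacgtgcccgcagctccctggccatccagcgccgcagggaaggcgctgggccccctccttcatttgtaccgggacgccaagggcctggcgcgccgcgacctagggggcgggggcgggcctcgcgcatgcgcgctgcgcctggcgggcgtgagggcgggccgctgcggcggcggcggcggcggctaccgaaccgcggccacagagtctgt
The first *HNF4A* window held 1 match to ATTGATT, which 1.98% of all promoters of this length hold, and 1 to AGATAA (9.17% of promoters). The second held 2 matches to GTTAAT (6.23% of promoters), 73 and 66 bases before the start. The *CDX2* window held 2 matches to TTTAT (32.7% of promoters), 1 to AGATAA that overlaps one of them, and 1 to TGTTTNC (15.5%), 13 bases before the start. The *ONECUT1* window held no match, and no window held CAAAGTNCA (0.940%). These are matches of letters, and binding was not measured.

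*HNF4A* (chromosome 20: 44355699-44432845, GRCh38, plus strand), the nuclear receptor, had its highest level in the *AFP* barcodes. They held 356 *HNF4A* UMIs in organoid 32.7, a level of 101 CPM (91.1 to 112), and 65 UMIs in organoid 33.10, a level of 115 CPM (88.5 to 146). Across the 6 lineages the level ran from 0 in the mesenchymal class to 1.13 CPM in the megakaryocyte class in organoid 32.7, and from 0 in the cardiomyocytes to 1.63 CPM in the megakaryocyte class in organoid 33.10. The *AFP* barcodes of both organoids thus lay far above every lineage, 296-fold and 229-fold over the mean level of the lineages. *HNF4A* had at least 1 UMI in 117 of the 307 *AFP* barcodes of 32.7 (38.1%, 32.7% to 43.8%) and in 20 of the 24 of 33.10 (83.3%, 62.6% to 95.3%). In the erythroid class, taken as the background, the shares were 0.358% and 0.853%, with median depths of 16413 and 11183 UMIs. After each barcode was thinned to 3000 UMIs, with shallower barcodes left out (36 and 2 *AFP* barcodes, 17 and 45 erythroid barcodes), the shares were 15.9% and 31.8% in the *AFP* barcodes and 0 of 542 barcodes and 0.441% in the erythroid class. *AFP* barcodes took 83.4% of all *HNF4A* UMIs of organoid 32.7 but 30.1% of those of organoid 33.10, where 77 UMIs lay in barcodes that passed several gates and 24 in the megakaryocyte class.

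The *HNF4A* UMIs of the megakaryocyte class were not those of 1 barcode. The class held 6 UMIs in 5 barcodes in organoid 32.7 (1.13 CPM, 0.415 to 2.46) and 24 UMIs in 21 barcodes in organoid 33.10 (1.63 CPM, 1.04 to 2.42), against 2 and 2 UMIs in the endothelial class (0.0568 CPM, 0.00688 to 0.205, and 0.0628 CPM, 0.0076 to 0.227). The intervals of the megakaryocyte and endothelial classes did not overlap in either organoid. Those of the megakaryocyte class did overlap the erythroid ones in both organoids (0.0225 to 0.670 CPM in 32.7 and 0.358 to 1.15 CPM in 33.10). In 32.7 they also overlapped those of the cardiomyocytes (0.279 to 1.00 CPM) and the myeloid class (0.0143 to 0.425 CPM). In the same megakaryocyte class of organoid 33.10 there were 4 *AFP* UMIs, and the *AFP* barcodes of that organoid had 4433 *AFP* UMIs beside 65 of *HNF4A*. The source of the *HNF4A* UMIs in the megakaryocyte class was not tested.

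The 3 FOXA genes encode related pioneer factors. *FOXA1* (chromosome 14: 37589552-37596059, minus strand) had 68 UMIs in the *AFP* barcodes of organoid 32.7 (19.4 CPM, 15.03 to 24.5) and 14 in those of 33.10 (24.7 CPM, 13.5 to 41.4). It was at 0 UMIs in the erythroid, megakaryocyte and myeloid classes of 32.7 and in the erythroid and mesenchymal classes of 33.10, and no lineage exceeded 0.157 CPM. In organoid 33.10, 9 of the 14 *FOXA1* UMIs came from a single barcode of 96263 UMIs, and the level without it was 10.6 CPM (3.45 to 24.8).

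*FOXA2* (chromosome 20: 22580998-22585455, minus strand) had 100 UMIs (28.5 CPM, 23.2 to 34.6) and 20 UMIs (35.3 CPM, 21.6 to 54.5) in the *AFP* barcodes of 32.7 and 33.10. It was at 0 in the erythroid, myeloid and mesenchymal classes of both organoids, in the megakaryocyte class of 32.7 and in the cardiomyocytes of 33.10. A count of 0 in the mesenchymal class allowed at most 0.108 CPM and 0.117 CPM (3 UMIs over the class). The *AFP* barcodes were 1077-fold over the mean level of the lineages in 32.7, where the lineages held 4 UMIs in all, and 228-fold in 33.10, where they held 18. The largest value outside, 0.679 CPM in the megakaryocyte class of 33.10, came from 10 UMIs in 1 barcode, which held 506 *TTR* UMIs, 21 *EPCAM* UMIs and no *AFP*. In the endothelial class of 33.10, 7 of 8 *FOXA2* UMIs were also in 1 barcode, with 49 *TTR* UMIs, 18 *EPCAM* UMIs and 1 *AFP* UMI.

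*FOXA3* (chromosome 19: 45863989-45873797, plus strand), which in the liver binds many of the same genes as the other two, had 109 UMIs (31.0 CPM, 25.5 to 37.4) and 19 UMIs (33.5 CPM, 20.2 to 52.3) in the *AFP* barcodes. It was more widely found at low level than *FOXA1* and *FOXA2*: it was at 0 only in the myeloid class, in both organoids, and *AFP* barcodes took 52.7% and 17.9% of its UMIs. In organoid 33.10, 5 of its 7 UMIs in the megakaryocyte class were in the barcode with 506 *TTR* UMIs. Of its 11 UMIs in the endothelial class there, 4 were in the barcode with 49 *TTR* UMIs. In the mesenchymal class it had 16 UMIs in 16 barcodes (0.574 CPM, 0.328 to 0.932) and 13 UMIs in 13 barcodes (0.506 CPM, 0.270 to 0.866). In the cardiomyocytes it had 18 UMIs (0.915 CPM, 0.542 to 1.45) in organoid 32.7 but 3 (0.139 CPM, 0.0287 to 0.406) in 33.10, so the organoids differed there beyond counting error. The *AFP* barcodes were 77.4-fold and 113-fold over the mean level of the lineages.

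*ONECUT1* (chromosome 15: 52755053-52791078, minus strand), a homeodomain factor of liver, biliary and pancreatic development, had 195 UMIs (55.5 CPM, 48.0 to 63.8) and 51 UMIs (90.0 CPM, 67.0 to 118) in the *AFP* barcodes. It was at 0 in the megakaryocyte and myeloid classes of both organoids and in the erythroid class of 32.7. The level in the cardiomyocytes was 0.610 CPM and 0.741 CPM, from 12 UMIs in 12 barcodes and 16 UMIs in 16 barcodes. In organoid 33.10 the cardiomyocytes held 3 *AFP* UMIs beside these 16, and in organoid 32.7 they held 381. The endothelial class had 0.398 CPM and 0.785 CPM, and 11 of its 25 UMIs in organoid 33.10 were in 1 barcode, the one that held 7 *FOXA2* UMIs. The *AFP* barcodes were 299-fold and 326-fold over the mean level of the lineages.

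*PDX1* and *CDX2*, the factors of more posterior endoderm, lie 34.6 kb apart on chromosome 13. *PDX1* (27920000-27926313, plus strand) had 7 UMIs in 5 *AFP* barcodes of organoid 32.7 (1.99 CPM, 0.801 to 4.10) and 1 UMI in organoid 33.10 (1.76 CPM, 0.0447 to 9.83). It was at 0 in every lineage of organoid 32.7 and in 5 of the 6 lineages of 33.10, with 1 UMI in the endothelial class. The limit that a count of 0 allowed ran from 0.0852 CPM (endothelial, 32.7) to 0.565 CPM (megakaryocyte, 32.7). At these counts a level of *PDX1* in the lineages was not detectable, and of the 7 UMIs in 32.7, 3 were in 1 barcode. *CDX2* (27960918-27969315, minus strand) had 98 UMIs in 47 *AFP* barcodes of organoid 32.7 (27.9 CPM, 22.6 to 34.0) and 3 UMIs in 2 *AFP* barcodes of organoid 33.10 (5.29 CPM, 1.09 to 15.5). The intervals of the organoids did not overlap. *CDX2* was at 0 in the endothelial, megakaryocyte and myeloid classes of both organoids and also in the cardiomyocytes and the mesenchymal class of 33.10. In 32.7, 11 UMIs in 9 mesenchymal barcodes gave 0.395 CPM (0.197 to 0.706), and 6 UMIs in the cardiomyocytes gave 0.305 CPM.

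**Figure D1:**
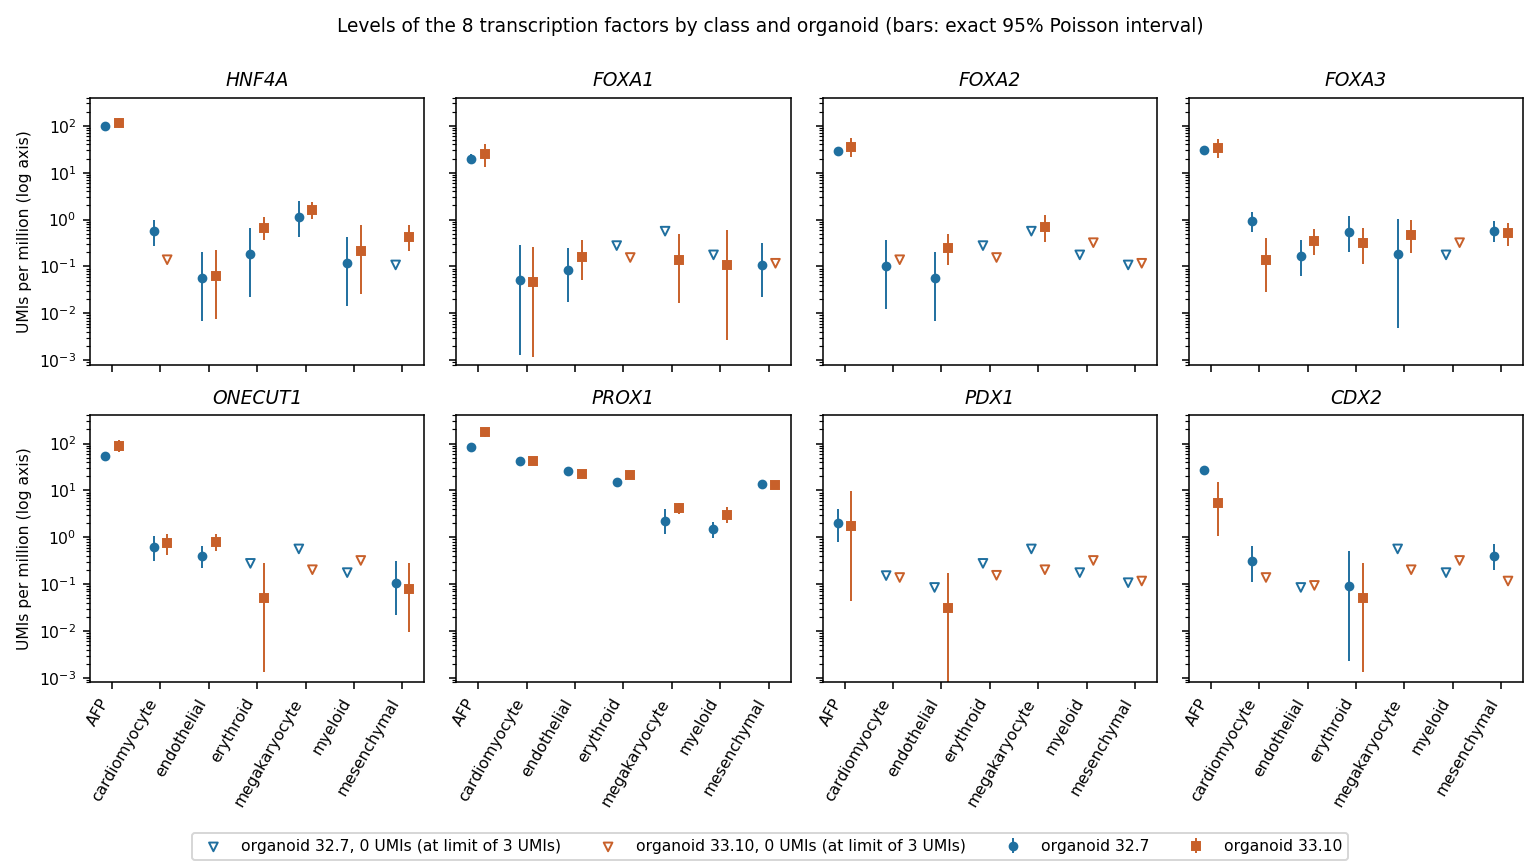
Level of each of the 8 factors (CPM of the class, log axis) in the *AFP* barcodes and the 6 lineages, with organoid 32.7 as circles, organoid 33.10 as squares and exact 95% Poisson intervals as bars. Open triangles mark sums of 0 UMIs, drawn at the level of 3 UMIs; *HNF4A*, *FOXA1*, *FOXA2*, *FOXA3* and *ONECUT1* lie at 19.4 to 115 CPM in the *AFP* barcodes and at no more than 1.63 CPM elsewhere, whereas *PROX1* reaches 42.8 CPM in the cardiomyocytes.

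*PROX1* (chromosome 1: 213983181-214041510, plus strand), a homeobox factor, was the member found in every class. The *AFP* barcodes had 295 UMIs (83.9 CPM, 74.6 to 94.1) in organoid 32.7 and 98 UMIs (173 CPM, 140 to 211) in 33.10. These were 7.64% and 2.27% of all *PROX1* UMIs. The cardiomyocytes had 842 and 921 UMIs, at 42.8 CPM (40.0 to 45.8) and 42.7 CPM (39.9 to 45.5). The endothelial class followed with 26.6 CPM and 22.3 CPM, the erythroid class with 15.5 CPM and 21.4 CPM and the mesenchymal class with 13.6 CPM and 13.1 CPM. The megakaryocyte class had 2.26 CPM and 4.14 CPM and the myeloid class 1.47 CPM and 3.00 CPM. By the mean of both organoids the order was *AFP* barcodes, cardiomyocytes, endothelial, erythroid, mesenchymal, megakaryocyte and myeloid. In CPM, each class of this order stood above the next in both organoids. Not every group of *AFP* barcodes described below stood above the cardiomyocytes, however. In organoid 32.7, *PROX1* was at 213 CPM in the 32 with *ONECUT1* but not *CDX2*. It was at 20.5 CPM (11.5 to 33.8) in the 45 with *CDX2* but not *ONECUT1*, and at 34.2 CPM (25.9 to 44.5) in the 228 with neither. The values of the endothelial class (24.5 ± 2.98 CPM, SD, n = 2) and the erythroid class (18.4 ± 4.18) did not differ beyond this spread. Neither did those of the megakaryocyte (3.20 ± 1.33) and the myeloid class (2.23 ± 1.08). The order of the endothelial and erythroid classes depended on normalization. In the edgeR fit below, the *AFP* barcodes exceeded them by a log2 fold change of 2.16 and 2.00. The erythroid class could not serve as a background for *PROX1*, since 20.9% of its barcodes in both organoids had a UMI, against 1.61% and 2.18% in the megakaryocyte class. The share was 27.7% and 75.0% in the *AFP* barcodes, 21.0% and 26.2% in the cardiomyocytes and 20.2% and 17.3% in the endothelial class.

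In organoid 33.10, 44 of the 98 *PROX1* UMIs of the *AFP* barcodes came from the barcode of 96263 UMIs, which also held 8 *HNF4A*, 9 *FOXA1*, 8 *ONECUT1* and 207 *AFP* UMIs. Without it the level was 115 CPM (86.2 to 150), and the interval then overlapped that of organoid 32.7. Known lymphatic endothelial genes were looked at beside *PROX1*. *LYVE1* and *FLT4* were highest in the endothelial class (*LYVE1* 26.2 CPM and 14.8 CPM, *FLT4* 64.7 CPM and 59.2 CPM), whereas *PDPN* was near 0 there (0.256 CPM and 0.220 CPM), and *RELN* and *CCL21* were higher in other lineages, *RELN* in the erythroid class (286 CPM and 238 CPM) and *CCL21* in the mesenchymal class (50.4 CPM and 74.9 CPM).

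Across the whole table, the *AFP* barcodes were compared with the mean of the 6 lineages with edgeR on the 14 sums (quasi-likelihood test, Benjamini-Hochberg adjustment), with the organoids as replicates (n = 2). The fit averages the lineages on the log scale. Its fold changes are therefore not those over the mean level of the lineages given above. Of 22070 genes tested, 16.4% were higher and 12.4% lower in the *AFP* barcodes at an adjusted p under 0.05. With 10% of each sum subtracted as free RNA, the higher genes made up 68.7% of the calls against 57.0%, and the median log2 fold change of all genes was 0.17 against -0.01. *PDX1* did not pass the filter on low counts and was not tested. The other 7 members were all higher, and none lower. *FOXA1*, *FOXA2* and *CDX2* passed the filter only through the *AFP* sums, so they had to lie higher there, and their count is no support. *HNF4A*, *FOXA3*, *ONECUT1* and *PROX1* pass without those sums. For them the log2 fold change was 8.34 for *HNF4A* (standard error 0.39, adjusted p = 1.11e-08), 7.03 for *FOXA3* (standard error 0.41, adjusted p = 2.37e-07) and 9.83 for *ONECUT1* (standard error 0.30, adjusted p = 4.04e-09). *PROX1* had a log2 fold change of 3.14 (standard error 0.21, adjusted p = 3.01e-07). Where lineages are at 0 UMIs, as for *ONECUT1*, the fitted fold change depends on the prior count and is not a bound. Only 2 organoids lie behind these p-values, and the classes of an organoid share its library. The spread used was pooled over the *AFP* class and the 6 lineages, which left 7 residual degrees of freedom.

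The same fit compared the *AFP* barcodes with each lineage. *HNF4A*, *FOXA3*, *ONECUT1* and *PROX1*, the 4 members that pass the filter without the *AFP* sums, were higher in all 24 of their comparisons with single lineages, where 11.2% (cardiomyocyte), 20% (endothelial), 28.4% (erythroid), 22.7% (megakaryocyte), 23.3% (myeloid) and 10.3% (mesenchymal) of all genes were higher. *FOXA1*, *FOXA2* and *CDX2* were also called in each, but they had to lie higher in the *AFP* barcodes, so this is no support. Of the 42 calls of the 7 tested members, 37 were made by DESeq2 and 41 with free RNA removed. DESeq2 did not call *CDX2* against the cardiomyocyte, erythroid, megakaryocyte and mesenchymal classes, nor *FOXA2* against the megakaryocyte class. *PROX1* gave the smallest differences. Its log2 fold change (edgeR, quasi-likelihood test, Benjamini-Hochberg adjustment) was 1.39 against the cardiomyocytes (standard error 0.28, adjusted p = 0.00315), 2.00 against the erythroid class, 2.16 against the endothelial class and 3.08 against the mesenchymal class. It was 4.75 against the megakaryocyte class and 5.48 against the myeloid class. With 10% of each sum subtracted as free RNA, the difference of *PROX1* from the cardiomyocytes was no longer called (log2 fold change 1.44, adjusted p = 0.0672), and without the *AFP* barcode richest in *PROX1* in each organoid it was 1.05 (adjusted p = 0.00771). *CDX2* had 98 UMIs in the *AFP* barcodes and 11 in the mesenchymal class of organoid 32.7, and 3 and 0 in those of 33.10. The log2 fold change between these classes was 6.58 (adjusted p = 0.00178) in edgeR and 6.43 (standard error 4.05, adjusted p = 0.298) in DESeq2.

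Outside the *AFP* barcodes, the cardiomyocytes and the endothelial class were compared, since *PROX1* is known from both tissues. Here 53.7% of the genes tested differed, 27.4% being higher in the cardiomyocytes. *PROX1* was higher in the cardiomyocytes, with a log2 fold change of 0.77 (standard error 0.25, Benjamini-Hochberg adjusted p = 0.0221, quasi-likelihood test of edgeR). It was 42.8 CPM against 26.6 CPM in organoid 32.7 and 42.7 CPM against 22.3 CPM in organoid 33.10, higher in both. None of the other 6 tested members passed. *HNF4A* had 11 and 2 UMIs in the cardiomyocytes and endothelial class of 32.7 and 0 and 2 in 33.10, in opposite directions. With the organoid as a block, since the classes of an organoid share a library, *CDX2* was also called (adjusted p = 0.0294 against 0.183 without the block), on 6 UMIs in cardiomyocytes of 32.7 alone and none in 33.10. With 10% of each sum subtracted as free RNA, *PROX1* was not called (log2 fold change 0.89, standard error 0.46, adjusted p = 0.126).

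**Figure D2:**
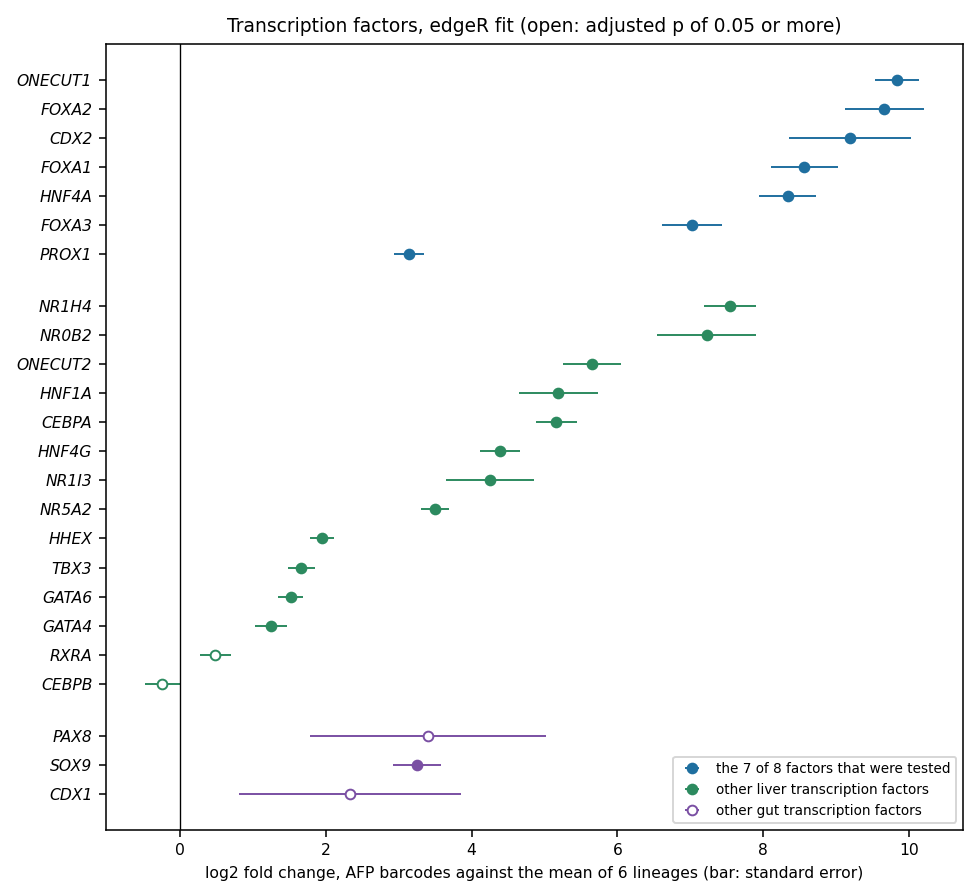
Log2 fold change between the *AFP* barcodes and the mean of the 6 lineages (edgeR, bars are standard errors, n = 2 organoids) for the 7 tested factors and for other liver and other gut transcription factors of the fixed lists, with open symbols for an adjusted p of at least 0.05. *PROX1* (3.14) lies below the other 6 factors (7.03 to 9.83), and *CEBPB*, *RXRA*, *PAX8* and *CDX1* are open.

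Other genes of the same network were counted from fixed lists. Of 16 other liver transcription factors, 15 were tested and 13 were higher in the *AFP* barcodes, none lower, with a median log2 fold change of 4.25 against -0.01 over all genes tested. Among the 11 of them that pass the filter without the *AFP* sums, 9 were higher, where 15.4% of all such genes were. *HHEX*, needed for the liver bud, was at 62.3 CPM and 79.4 CPM and had a log2 fold change of 1.95, and it was at 69.1 CPM and 59.1 CPM in the endothelial class. *GATA4* was among those called (log2 fold change 1.25). In organoid 32.7 it was nevertheless at 136 CPM in the *AFP* barcodes and 165 CPM in barcodes with 0 *AFP* UMIs. A call against the lineage mean thus does not place a factor above every lineage. *NR1H4*, the bile acid receptor, was at 16.2 CPM and 12.3 CPM. *CEBPB* (log2 fold change -0.24) and *RXRA* (0.48) did not pass, and *NR1I2*, with 1 UMI in the *AFP* barcodes of each organoid, was not tested. All 14 liver genes on which *HNF4A* or FOXA factors are known to act were higher (median log2 fold change 10.60), 12 of 12 among those that pass without the *AFP* sums. All 7 epithelial genes were higher too, *EPCAM* by a log2 fold change of 5.35 and *KRT18* by 1.43.

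Few transcription factors of other gut regions had enough UMIs for the test. Of 14 anterior foregut, pancreas and hindgut factors, 4 were tested and 1 was higher in the *AFP* barcodes, *SOX9* (log2 fold change 3.26). Among the 3 that pass the filter without the *AFP* sums, 1 was higher, where 15.4% of all such genes were. *SOX9*, an epithelial progenitor factor, was at 23.3 CPM and 26.5 CPM and also reached 15.7 CPM and 19.7 CPM in the mesenchymal class. *NKX2-1*, of lung and thyroid, and *PTF1A*, *NKX6-1* and *NKX2-2*, of the pancreas, had 0 UMIs in all classes compared, as did *CDX4*. *MNX1* had 11 UMIs in the *AFP* barcodes of 32.7 and 0 in those of 33.10. A count of 0 in the *AFP* barcodes allowed up to 0.854 CPM in organoid 32.7 and 5.29 CPM in organoid 33.10.

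The members were not spread evenly over the *AFP* barcodes. Leaving *PROX1* aside, 155 of the 307 *AFP* barcodes of organoid 32.7 had no UMI of the other 7 members, 72 had a UMI of 1 and 80 (26.1%) of 2 or more. In organoid 33.10, 1 of 24 had none and 20 (83.3%) had 2 or more. No barcode had all 7, and 4 had 6, all in organoid 32.7. In organoid 32.7 the members' levels differed with depth. There, 220 *AFP* barcodes of under 10000 UMIs held 62 *HNF4A* UMIs (54.3 CPM) and 8 *ONECUT1* UMIs (7.01 CPM), while the 87 of at least 10000 UMIs held 294 (124 CPM) and 187 (78.8 CPM). The shallow ones also had less *EPCAM* (91.1 CPM against 320 CPM) and more *MYL7* (714 CPM against 162 CPM), a light chain of atrial muscle. Organoid 33.10 had 5 shallow and 19 deep *AFP* barcodes, and most of these genes lay the other way. *ONECUT1* was at 298 CPM in the shallow ones (8 UMIs, 129 to 587) against 79.6 CPM in the deep ones, *PROX1* at 335 CPM (9 UMIs) against 165 CPM, *EPCAM* at 484 CPM against 298 CPM and *MYL7* at 37.2 CPM against 231 CPM. *HNF4A*, with 2 UMIs in the shallow ones, was at 74.5 CPM against 117 CPM.

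The level of the members also varied with the *AFP* count itself. Just below the threshold, the 73 barcodes of 32.7 with 5 to 9 *AFP* UMIs had 3 *HNF4A* UMIs (8.56 CPM) and 4 *ONECUT1* UMIs (11.4 CPM), and just above it the 56 with 10 to 14 had 16 of each (47.8 CPM). Those of *HNF4A* lay in 12 barcodes and those of *ONECUT1* in 3. The 150 barcodes with 15 to 49 *AFP* UMIs had 37 *HNF4A* UMIs (43.5 CPM) and 4 *ONECUT1* UMIs (4.71 CPM). The 101 barcodes with at least 50 had 303 (130 CPM) and 175 (75.1 CPM). These groups also differed in other genes. Of the 206 barcodes of 32.7 with 10 to 49 *AFP* UMIs, 153 passed the cardiomyocyte gate, against 16 of these 101. The 6 cardiomyocyte markers summed to 1613 CPM and 283 CPM in them, and *EPCAM* was at 97.9 CPM and 321 CPM. Organoid 33.10 had no barcode with 5 to 14 *AFP* UMIs, 7 with 15 to 49 and 17 with at least 50, and *HNF4A* stood at 96.9 CPM and 118 CPM in the latter groups.

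**Figure D3:**
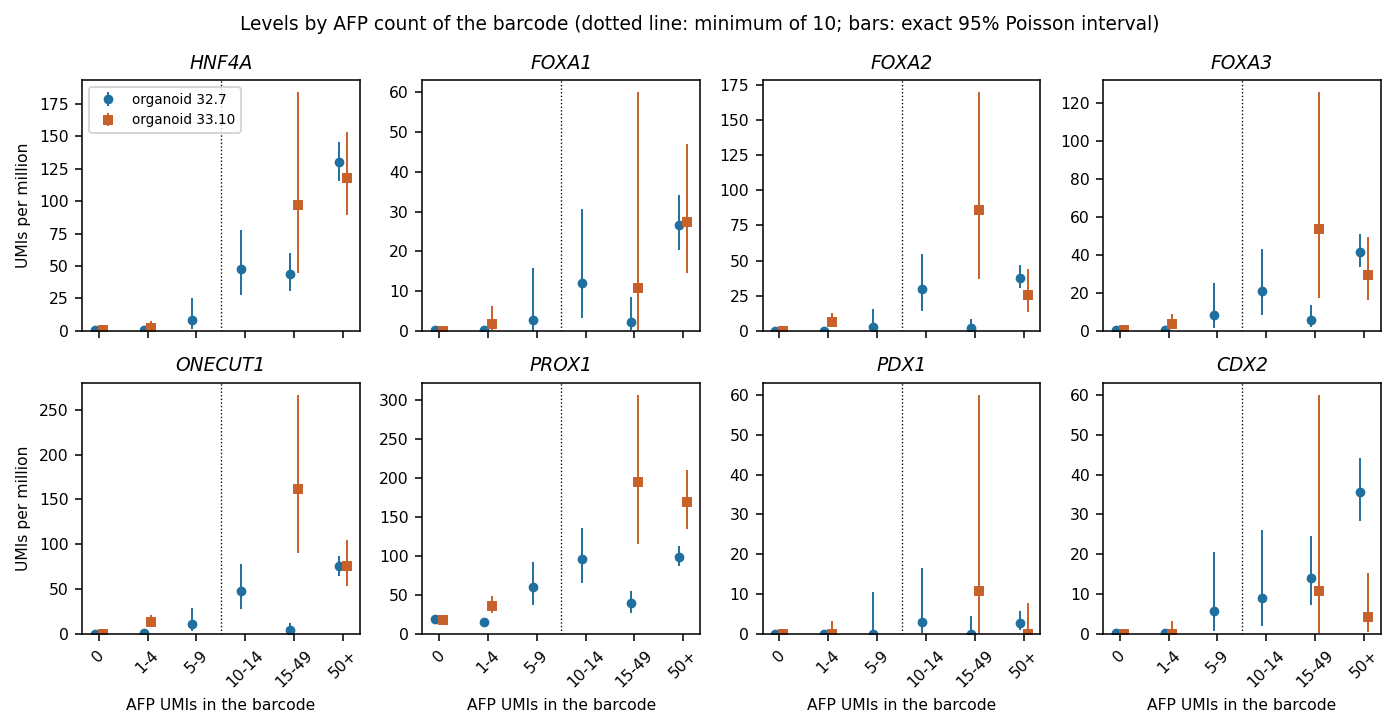
Level of each factor (CPM) in barcodes grouped by their *AFP* count, with organoid 32.7 as circles, organoid 33.10 as squares and exact 95% Poisson intervals as bars; the dotted line marks the minimum of 10 *AFP* UMIs. In organoid 32.7 *HNF4A* goes from 8.56 CPM at 5 to 9 *AFP* UMIs to 130 CPM at 50 or more, and organoid 33.10 has no barcodes from 5 to 14.

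Pairs of members were compared within single *AFP* barcodes, as a description. In organoid 32.7, *HNF4A* had a UMI in 31 of the 34 barcodes with *FOXA1* (91.2%), in 28 of the 34 with *ONECUT1* (82.4%) and in 29 of the 47 with *CDX2* (61.7%). Its share was 38.1% in all *AFP* barcodes of 32.7 and 78.2% in those of at least 10000 UMIs. At that depth *HNF4A* was in 20 of 22 barcodes with *CDX2* but not *ONECUT1*, and in 22 of 25 with *ONECUT1* but not *CDX2*. The shares thus vary with depth. *PROX1* had a UMI in 31 of the 34 barcodes with *ONECUT1*, and in 12 of the 47 with *CDX2*. *ONECUT1* and *CDX2* themselves were found together in 2 barcodes, both deep, with a median of 67562 UMIs, and in organoid 33.10 in none (15 barcodes with *ONECUT1* and 2 with *CDX2*).

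The *AFP* barcodes were therefore also described by these 2 genes. In organoid 32.7, 45 barcodes had *CDX2* without *ONECUT1* (median 9914 UMIs) and 32 had *ONECUT1* without *CDX2* (median 19796 UMIs). *HNF4A* was at 138 CPM (112 to 168) in the former and 126 CPM (105 to 149) in the latter, and *FOXA2* at 38.3 CPM (25.4 to 55.3) and 46.5 CPM (34.1 to 61.8), so neither separated them beyond counting error. *PROX1* was at 20.5 CPM (11.5 to 33.8) with *CDX2* and 213 CPM (185 to 243) with *ONECUT1*, and *FOXA3* at 26.0 CPM (15.6 to 40.6) and 67.2 CPM (52.2 to 85.2). *FOXA1* was at 20.5 CPM (11.5 to 33.8) and 38.6 CPM (27.4 to 52.7), with overlapping intervals. *PDX1* had 1 UMI with *CDX2* and 6 with *ONECUT1*. The barcodes with at least 10000 UMIs showed *PROX1* at 22.0 CPM in 22 barcodes with *CDX2* and 214 CPM in 25 with *ONECUT1*.

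Genes outside the 8 members differed along the same division in organoid 32.7. *SERPINA1*, which encodes alpha-1 antitrypsin, was at 2728 CPM with *CDX2* and 21161 CPM with *ONECUT1*, *HHEX* at 9.57 CPM and 161 CPM, *NR1H4* at 1.37 CPM and 47.4 CPM and *TF*, transferrin, at 256 CPM and 1013 CPM. *TTR*, which carries thyroid hormone, was at 5927 CPM with *CDX2* and 755 CPM with *ONECUT1*, *RBP4*, the retinol carrier, at 1688 CPM and 447 CPM and *APOC3* at 1998 CPM and 383 CPM. *MYL7* was at 264 CPM with *CDX2* and 90.0 CPM with *ONECUT1*. In organoid 33.10 only 2 *AFP* barcodes had *CDX2*, so the 15 with *ONECUT1* were set beside the 7 with neither. *PROX1* was at 251 CPM (202 to 309) and 40.5 CPM (17.5 to 79.8), *TTR* at 1325 CPM and 8823 CPM, *APOC3* at 96.0 CPM and 598 CPM and *RBP4* at 254 CPM and 1038 CPM. *SERPINA1* was at 10728 CPM and 4042 CPM, and *NR1H4* had all of its UMIs in the barcodes with *ONECUT1*. *HNF4A* was at 107 CPM (76.0 to 147) and 127 CPM (81.9 to 187). *PROX1* was thus higher and *TTR* lower with *ONECUT1* in both organoids, but the groups set against it were unlike. In the 228 barcodes of 32.7 with neither gene, *PROX1* was at 34.2 CPM and *TTR* at 1593 CPM. Of these 228, 144 passed the cardiomyocyte gate. The cardiomyocyte class had *PROX1* at 42.8 CPM in 32.7 and 42.7 CPM in 33.10. In both organoids the *AFP* barcodes with *ONECUT1* but not *CDX2* lay above that level, and those with neither gene did not. The barcodes with *ONECUT1* in 33.10 include the one of 96263 UMIs, with 44 *PROX1* UMIs. The barcodes are cells of 1 library each, not replicates, the groups were formed with the counts of both genes known, and no test was made.

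**Figure D4:**
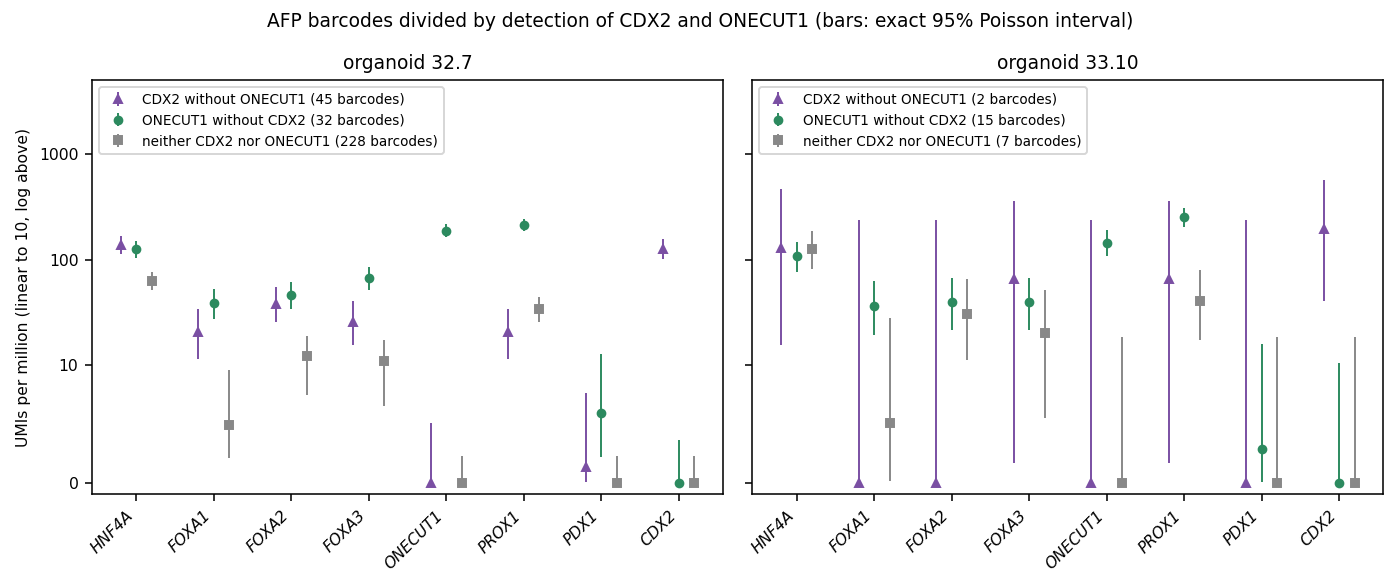
Level of each factor (CPM, linear to 10 and logarithmic above) in *AFP* barcodes with *CDX2* but not *ONECUT1* (triangles), with *ONECUT1* but not *CDX2* (circles) and with neither (squares), in organoid 32.7 on the left and 33.10 on the right; bars are exact 95% Poisson intervals. In organoid 32.7 *PROX1* is at 213 CPM with *ONECUT1* and 20.5 CPM with *CDX2*, while *HNF4A* is at 126 CPM and 138 CPM; *CDX2* and *ONECUT1* themselves are fixed by the grouping.

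The genes whose level was most like that of a member over the 14 sums were found by Pearson's r of log2(CPM + 1). *HNF4A* was followed most closely by *AP1M2* (r = 0.995), a gene of epithelial sorting, *VIL1* (0.989), which encodes villin, and *FOXA2* (0.988). For *FOXA2* they were *SPTSSB*, *LINC00261* and *AMBP* (0.997 to 0.998), and *LINC00261* lies 2.36 kb from *FOXA2* on the same strand. For *FOXA3* they included *AKR1D1* (0.993) and *PLG* (0.992), and for *ONECUT1* *SPINK1*, *A1CF* and *MIR122HG* (0.995 to 0.998), the host gene of a liver microRNA. For *CDX2* they were *GNRH2*, *URAD* and *ZG16* (0.990 to 0.994), of which *URAD* lies 8.40 kb away on the same strand. For *PROX1* the closest were *PLEKHH1* (0.932), *ZNF749* (0.920) and *UNC13B* (0.919), lower than for any other member. *FOXA1* and *PDX1* had 98 and 9 UMIs over the sums, below the minimum of 100. The sums of an organoid share a library, and the *AFP* sums set most of each r.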

How the data were processed

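Both organoids were profiled with 10x 3' v3.1 chemistry. The deposited matrices hold whole UMI counts per gene and barcode, which the authors made with Cell Ranger 7.0.0 on GRCh38 (submitters' processing notes). All deposited barcodes were used. The authors' later correction for free RNA was not repeated and no doublet caller was run, but barcodes under 10 *AFP* UMIs that passed several gates entered no lineage. The 8 members, the gates and the gene lists were chosen with earlier results of these data known. The genes named are the members, *AFP*, those fixed lists and markers, and the 3 genes most alike to each member with at least 100 UMIs. Values of some genes of the lists are not reported here. Lymphatic genes, and single barcodes and groups of barcodes, were singled out as described. UMIs were summed per class and organoid and tested with edgeR 4.0.16 in R 4.3.3 (TMM, its filter on low counts, quasi-likelihood F-test), adjusted over all genes tested. *AFP* and the gate genes were not tested. DESeq2 1.42.0 was an alternative, and Python 3.11.15, numpy 2.4.6, scipy 1.17.1 and pandas 2.3.3 did the rest. On simulated counts of 20602 genes for *AFP* barcodes against the lineage mean, 56 of 100 genes with a log2 fold change of 1 and 98 of 100 with 3 were recovered, and 7.23% of 166 calls were false. These counts were drawn independently with 1 dispersion for all genes, and the classes differed only in the changed genes. The data depart from this setting, so the rates need not hold for them. Sums with the same replicate number come from the same organoid and are therefore paired. Over 21 pairs of classes, their deviations from the class means correlated at 0.03 to 0.53, and 20 exceeded 0.1 (13384 genes). The study's methods treat each organoid as its own culture. The p-values rest on the spread between 2 organoids of 1 cell line, pooled over the 7 classes (7 residual degrees of freedom). That spread was also moderated across genes, so it is not that of the *AFP* barcodes alone.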

Additional observations from a re-analysis of the deposited data

Results flagged for a closer look

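The comparisons between classes left out barcodes that passed several lineage gates or none, and both held UMIs of the 7 members other than *PROX1*. Barcodes that passed several gates held 80 such UMIs in organoid 32.7 and 138 in organoid 33.10, and *HNF4A* gave 38 and 77 of them. Barcodes that passed no gate held 69 UMIs in 32.7 and 55 in 33.10. All these counts lie above the 3 counts that a count of 0 allows, but they are spread over many barcodes. In barcodes that passed several gates, *HNF4A* was at 0.756 CPM in 32.7 and 0.935 CPM in 33.10. These levels lie within the range of the lineages, against 101 CPM and 115 CPM in the *AFP* barcodes. There were 2298 and 3650 barcodes that passed several gates and 5106 and 5691 that passed none.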

How the results depend on the processing

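Under the alternatives tried, 54 of 64 values of the main comparisons were kept by a broad rule. Counts of called members were kept when of similar size, so 37 and 48 against 42 both counted. The 48 came without the filter on low counts, where *PDX1* was tested too. Its calls there rest on 8 UMIs in the *AFP* barcodes and 1 in the lineages, and are no support. The counts for the *AFP* barcodes include *FOXA1*, *FOXA2* and *CDX2*, which passed the filter only through the *AFP* sums, and are no support for these members. The mean *HNF4A* share was kept within the SD of the organoids (32.0 points), and numbers of *AFP* barcodes within their binomial interval. The share with 1 organoid left out had to stay within that SD. Requiring 4 of 6 gate genes cannot alter the *AFP* barcodes, so these values were kept by construction. Of 224 tested values of single genes, 219 kept their direction and side of the threshold. Among these 224 were 14 each for *FOXA1*, *FOXA2* and *CDX2* against the lineage mean, and 14 for *CDX2* against the mesenchymal class. These members passed the filter only through the *AFP* sums, so these values are no support. With 1 organoid left out, which gives no test, 14 of 32 values of single genes moved beyond the spread. In organoid 32.7 alone and 33.10 alone, cardiomyocytes against endothelial cells gave a log2 fold change of 3.07 and -3.20 for *HNF4A* and 2.30 and -1.25 for *FOXA3*, neither called, and *CDX2* against the mesenchymal class gave 6.11 and 9.26. Between cardiomyocytes and endothelial cells, where 1 member was called, 0 were called with free RNA removed and 2 with the organoid as a replicate block, which changed no other member's call. *ONECUT1* in that comparison, not called, turned from a log2 fold change of 0.18 to -0.31 (adjusted p = 0.632) when 4 of 6 gate genes were required, and *HNF4A* was called (3.60, adjusted p = 0.0275) with *AFP* of at least 50. At that minimum, barcodes with 10 to 49 *AFP* UMIs could enter the lineages. In 32.7 there were 206 of them, with 53 *HNF4A* UMIs, and 153 passed the cardiomyocyte gate. The cause of either change was not tested. *PROX1* against the cardiomyocytes had adjusted p of 5.96e-05 to 0.0672 over 14 alternatives, and was 0.99 in organoid 32.7 alone and 1.82 in 33.10 alone. *CDX2* against the mesenchymal class had adjusted p of 2.44e-05 to 0.298. The mean share of *AFP* barcodes with *HNF4A* was 60.7%, and 23.8% after thinning to 3000 UMIs, which by construction lowers it, and leaving out either organoid gave 38.1% to 83.3%. The 307 *AFP* barcodes of 32.7 became 380, 205 and 101 at minimums of 5, 20 and 50 *AFP* UMIs, 421 at 10 per 10000 UMIs, and 86 without those that passed a lineage gate (12 of 24 in 33.10). In an alternative chosen after seeing the data, 87 had at least 10000 UMIs. In 33.10 *PDX1* had 1 UMI in the *AFP* barcodes, which held 566845 UMIs in all. A count of 0 in that sum allows up to 5.29 CPM.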

Other observations

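Members were also found together in a few barcodes that the *AFP* threshold left out. With under 10 *AFP* UMIs, 6 barcodes of organoid 32.7 and 11 of organoid 33.10 held UMIs of at least 2 of the 7 members other than *PROX1*. Those of 33.10 were deep (median 31870 UMIs), with *FOXA2* at 77.7 CPM (53.5 to 109), *HNF4A* at 35.3 CPM (19.8 to 58.2), *EPCAM* at 341 CPM and *TTR* at 1961 CPM, whereas *RBP4* was at 0. In 32.7 they had *FOXA3* at 75.6 CPM (37.8 to 135), *FOXA1* at 61.9 CPM (28.3 to 117) and no *ONECUT1* UMI, with *EPCAM* at 282 CPM and *SERPINA1* at 41.3 CPM, against 8027 CPM for *SERPINA1* in the *AFP* barcodes of that organoid. These barcodes were picked by the members themselves, so the members' levels in them are a description.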
